A study of Mus musculus with 9 samples.

Results

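The nuclear-encoded subunits of the respiratory chain and the ATP synthase were followed through the livers of 9 mice. Members were chosen by gene symbol, as Nduf genes of the a, b, c, s and v series, Sdha to Sdhd, the Uqcr genes, the Cox4 to Cox8 genes and the Atp5 genes, without pseudogenes. This gave 85 of the 23337 genes in the table, with 37 in complex I, 4 in complex II, 8 in complex III, 19 in complex IV and 17 in complex V. Of these, 79 had enough reads to be tested. All mice were C57BL/6, were 6 to 8 weeks old when a high-fat diet (HFD) began, and ate it for 16 weeks. The groups were PAR2 KO mice, labelled as lacking protease-activated receptor 2 throughout the body, PAR2dHep mice, labelled as lacking it in hepatocytes, and PAR2fl/fl mice, called WT, which carry the floxed gene without its deletion. Each group had 3 mice, and the Cre driver is not given in the labels. The comparison of dHep with WT asks what the loss of the receptor from hepatocytes does to the liver on this diet, and that of KO with WT asks the same of the whole body. Dependence of these transcripts on HNF4A, which the series title names, is not measured by either.

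The respiratory chain takes electrons from NADH at complex I and from succinate at complex II, passes them through ubiquinone to complex III and through cytochrome c to complex IV, which gives them to oxygen. Complexes I, III and IV pump protons across the inner mitochondrial membrane as they do so, and complex V, the ATP synthase, lets them back and makes ATP. Most subunits are encoded in the nucleus, translated on cytosolic ribosomes and imported, while a few core subunits are encoded in mitochondrial DNA and were not analysed here. In hepatocytes the chain reoxidises the NADH and reduced flavins made by fatty acid oxidation, and it supplies the ATP for gluconeogenesis and urea synthesis.

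The libraries held 18683660 to 30509242 reads assigned to genes, of which the members took 1.16% to 1.42%. The targeted gene went against 1 label. F2rl1, which encodes the receptor, had 71, 103 and 76 reads in the libraries labelled KO, 2, 8 and 0 in dHep and 17, 27 and 28 in WT. Its log2 fold change was 2.22 ± 0.51 (SE) in the libraries labelled KO against WT (edgeR adjusted p = 0.00735) and -2.73 ± 0.66 in dHep against WT (edgeR adjusted p = 0.0164). The call of F2rl1 in dHep ended without dHep replicate 1 (edgeR adjusted p = 0.0505) or WT replicate 2 or 3 (0.0595 and 0.062; range over the alternatives 6.3e-05 to 0.062). The counts cover the whole gene and do not separate deleted from remaining exons, so every direction given for the libraries labelled KO rests on a label that these counts do not bear out. Of 8 hepatocyte markers, 7 stood at 591 CPM or more in every library. Ass1, a urea cycle enzyme, had only 2 to 13 reads in each, and whether this count gives its level was not tested. The summed level of the 8 markers, most of it Alb, was 97958 to 111444 CPM in the libraries labelled KO. It was 102197 to 146693 CPM in dHep and 98614 to 103736 CPM in WT. Levels here are counts scaled to 1e+06 reads per library (CPM) with TMM-scaled library sizes, and a gene was called when its edgeR adjusted p was under 0.05.

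The symbol rule also took in genes that do not encode a subunit. Cox4nb encodes a part of the membrane protein insertion complex of the endoplasmic reticulum, Atp5s and Atp5sl encode mitochondrial proteins outside the ATP synthase, the second of them an assembly factor of complex I, and Cox7a2l encodes a factor that joins complexes III and IV into supercomplexes. Ndufa4, counted here with complex I by its symbol, encodes a subunit of complex IV. The 6 members that were not tested were Cox8c, Cox7b2 and Ndufs5, with 0 reads in all libraries, and Cox4i2, Cox6b2 and Cox6a2, with 17, 38 and 169 reads over all libraries. Ndufs5 encodes an accessory subunit of complex I that mitochondria generally hold, and 95.1% of its exon bases overlap BC002163 on the same strand, which itself had 452 reads. Reads of such overlapping genes cannot be told apart, so the 0 for Ndufs5 is a value of the counting and gives no level of its transcript. Per kilobase of gene length, the most abundant transcript in WT was that of Atp5b, the catalytic beta subunit of the ATP synthase, at 697 CPM per kilobase. It was followed by Ndufa4 at 654, Cox6b1 at 445, Atp5a1 at 433 and Cox4i1 at 414 CPM per kilobase.

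Against WT, 46 of the 79 tested members rose in dHep and 0 fell, where 12.4% of all 13141 tested genes rose and 11.9% fell. The median log2 fold change was 0.48 over the tested members and 0.015 over all tested genes. In the libraries labelled KO against WT, 46 of 79 rose and 2 fell, where 20.9% of all genes rose and 22.1% fell, and the medians were 0.46 and -0.013. The 2 that fell were Ndufs1 and Sdha, the large iron-sulfur subunit of complex I and the flavoprotein of complex II. In dHep, 59 tested members had all 3 values above all WT values and 0 had all below (20.8% and 22.6% of all genes), and in the libraries labelled KO this held for 63 and 6 (32.4% and 33.8%). For the fall in dHep, where edgeR called 0, an unadjusted p under 0.05 was reached by 0 members, and DESeq2 and limma voom also called 0. The 2 comparisons share the WT libraries, so their counts are not independent of each other. The count of rises in dHep was 22, 22 and 18 without WT replicate 1, 2 or 3, where 890, 667 and 606 of all genes rose. The medians of the members in these fits were 0.465, 0.493 and 0.485. Without TMM factors the count was 30, where 778 of all genes rose. The median of all genes was then -0.15 and that of the members 0.31. With all libraries and TMM factors, 1624 of all genes rose. Without the 4 members that encode no subunit, 44 of 75 rose in dHep, and 45 rose and 2 fell in the libraries labelled KO.

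**Figure D1:**
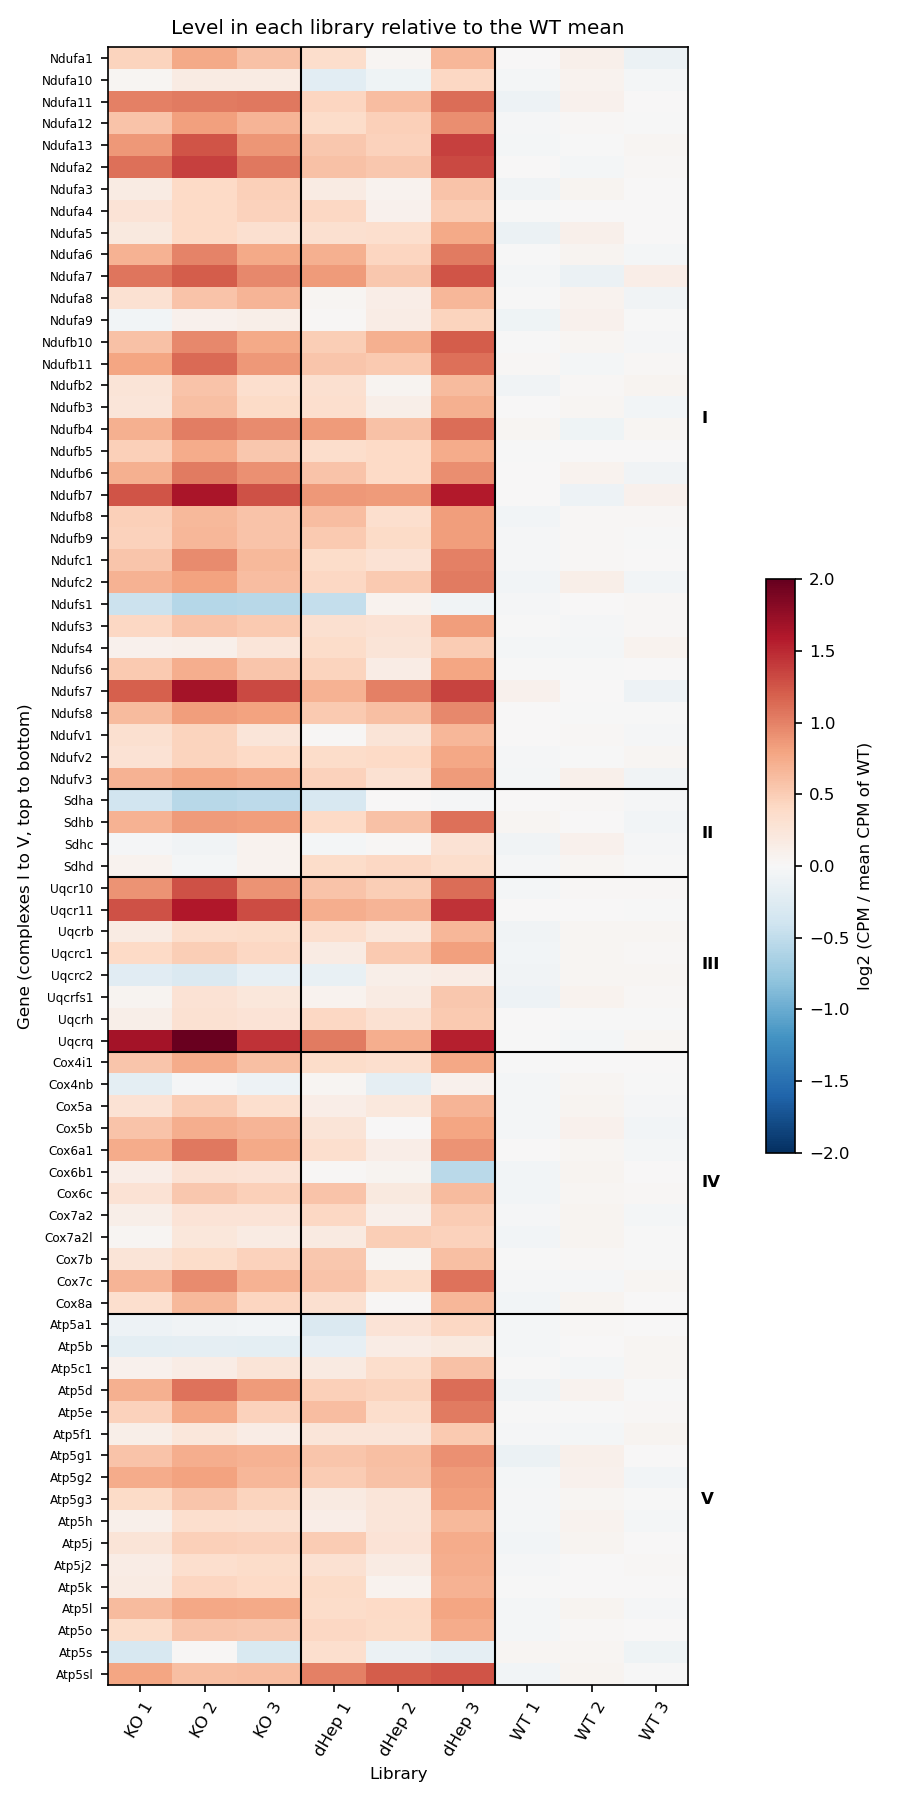
Each cell is the log2 ratio of a member's CPM in 1 library to its mean CPM in WT, with 3 libraries labelled KO, 3 dHep and 3 WT from left to right and the tested members of complexes I to V from top to bottom. Cox8b, Cox7a1 and Ndufa4l2, with few reads, and 1 other member are left out. The libraries labelled KO and those of dHep are red for most members, within dHep mostly deepest in dHep 3. Ndufs1 and Sdha are blue in the libraries labelled KO.

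Summed over its genes, complex I stood at 3622 ± 239.8 CPM in the libraries labelled KO, 3573 ± 639.8 CPM in dHep and 2639 ± 47.0 CPM in WT (mean ± SD, n = 3 each). Complex III summed to 1588 ± 97.0 CPM in the libraries labelled KO, 1618 ± 252 CPM in dHep and 1218 ± 39.3 CPM in WT. For complex IV the sums were 2007 ± 136 CPM in the libraries labelled KO, 1907 ± 240.1 CPM in dHep and 1471 ± 32.3 CPM in WT, and for complex V 4658 ± 175 CPM in the libraries labelled KO, 5199 ± 840.0 CPM in dHep and 4267 ± 92.1 CPM in WT. In these 4 complexes every library labelled KO and every dHep library lay above every WT library. Complex II differed from them in level, at 1208 ± 34.2 CPM in the libraries labelled KO, 1443 ± 153 CPM in dHep and 1325 ± 27.8 CPM in WT. Its sum in the libraries labelled KO lay below that of every WT library. Sdha was the largest part of this sum, at 554 CPM in the libraries labelled KO, 721 CPM in dHep and 775 CPM in WT. Sdhb, Sdhc and Sdhd had means of 235, 183 and 236 CPM in the libraries labelled KO and 135, 184 and 231 CPM in WT. In RNA of whole liver, a lower number of cells of some type and a lower RNA content of each such cell cannot be told apart.

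Other features of the libraries also differed between the groups, some of them higher than in WT and some lower. Among 865 other tested genes under 1000 bases long, 292 rose and 56 fell in dHep against WT, with a median log2 fold change of 0.38, and 414 rose and 88 fell in the libraries labelled KO against WT, with a median of 0.48. Cytosolic ribosomal protein genes rose in 73 of 79 in dHep against WT and fell in 0 (median 0.63), and in 75 of 79 in the libraries labelled KO, with 1 fall (median 0.72). Macrophage markers, 4 of which were in the table, summed to 46.7 to 90.9 CPM in the libraries labelled KO, 117 to 210.2 CPM in dHep and 181 to 229 CPM in WT. They fell in 4 of 4 in the libraries labelled KO and in 2 of 4 in dHep. The 5 stellate cell and fibroblast markers summed to 186 to 269.7 CPM in the libraries labelled KO, 227 to 351 CPM in dHep and 482 to 548 CPM in WT, and fell in 5 of 5 in the libraries labelled KO and in 3 of 5 in dHep. None of these marker genes was at 0 in all libraries. The part of gene length, ribosomal transcripts and cell makeup in the rise of the members was not tested.

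**Figure D2:**
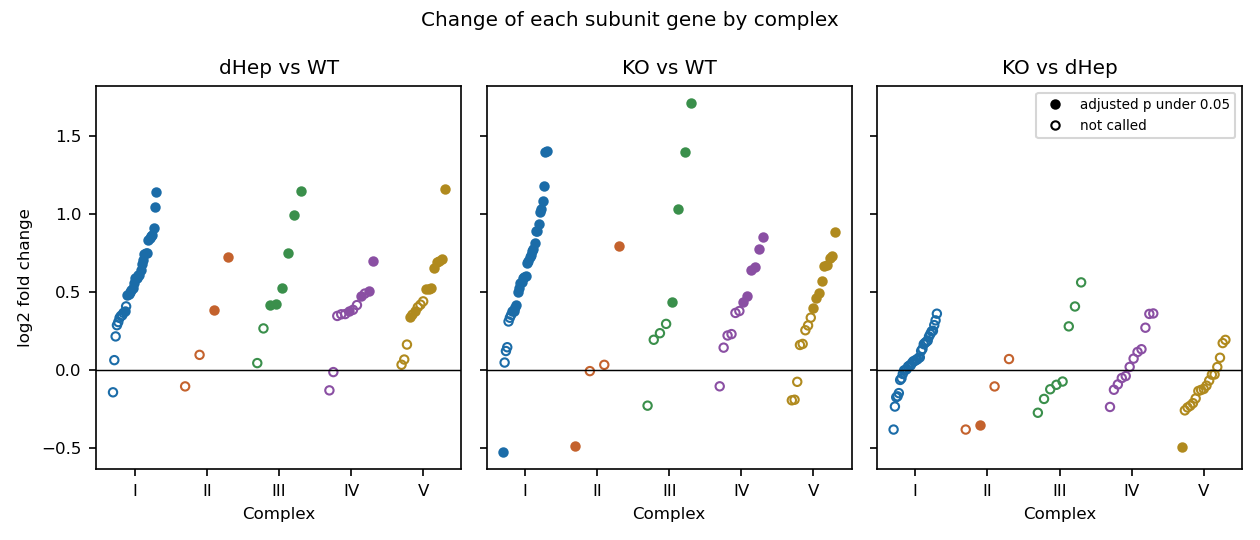
Each point is the log2 fold change of 1 tested member (vertical axis) by complex (horizontal axis), ordered by size within a complex, for dHep vs WT, KO vs WT and KO vs dHep. Filled points had an edgeR adjusted p under 0.05, and Cox8b, Cox7a1, Ndufa4l2 and 1 other member are left out. Filled points lie above 0 against WT except for Ndufs1 and Sdha, and KO vs dHep has 2 filled points, both below 0.

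Promoters of these genes are known for sites of the transcription factors NRF1, GABPA (an ETS factor) and YY1, and the estrogen-related receptor ESRRA acts at many of them. RefSeq windows of GRCm38.p6, from 250 bases before to 50 bases from each start, were found for 69 of the 85 members, 66 by symbol and 3 by an older symbol. The NRF1 motif occurred in 16 of 69 windows (23.2%), against 4.78% of the windows of all 27025 genes. The ETS letters CCGGAAG occurred in 15 (21.7%, against 9.12%) and the YY1 letters AAGATGGC in 10 (14.5%, against 2.88%). The ESRRA letters TCAAGGTCA were in 2 windows (2.9%, against 0.41%), and the HNF4 letters CAAAGTCCA were in 0, where 0.48% of all windows held them. Both strands were searched, and the NRF1 motif can match both strands at 1 place, which was counted once. At least 1 NRF1, ETS or YY1 match was present in 36 of the 69 windows. Among windows of members that rose in the libraries labelled KO against WT, 10 of 41 held the NRF1 motif, against 5 of 25 windows of the other tested members. The ETS letters were in 10 of 41 and 5 of 25 of these windows and the YY1 letters in 5 of 41 and 5 of 25. A match of letters is a description and not a bound site.

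The 250 bases before the start are printed for 4 members that rose in both groups against WT (Uqcr11, Ndufb7, Ndufa11 and Atp5g2), and for the complex II genes Sdhd and Sdha, which did not. Capitals mark matches to the NRF1 motif or the ETS letters on either strand. The ETS letters begin 66 bases before the start in Uqcr11, 20 in Ndufb7 and 46 in Sdhd, and the NRF1 motif begins 60 before it in Ndufa11, 42 in Atp5g2 and 79 in Sdhd. Sdha has it at 3 places, 98, 55 and 10 bases before its start. The windows are from RefSeq (GRCm38.p6), each read 5′ to 3′ on the strand of its gene.
Uqcr11 chr10:80406822-80407071 (minus strand): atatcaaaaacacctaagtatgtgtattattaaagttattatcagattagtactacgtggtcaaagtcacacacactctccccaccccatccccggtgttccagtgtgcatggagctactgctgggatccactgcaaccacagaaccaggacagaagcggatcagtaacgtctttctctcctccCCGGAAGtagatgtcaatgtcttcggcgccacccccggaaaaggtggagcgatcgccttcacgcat
Ndufb7 chr8:83566508-83566757 (plus strand): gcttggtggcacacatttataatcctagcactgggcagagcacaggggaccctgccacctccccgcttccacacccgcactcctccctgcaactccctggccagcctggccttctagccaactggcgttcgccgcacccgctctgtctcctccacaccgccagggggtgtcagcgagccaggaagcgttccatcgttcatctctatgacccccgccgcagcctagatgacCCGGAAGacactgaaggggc
Ndufa11 chr17:56717512-56717761 (plus strand): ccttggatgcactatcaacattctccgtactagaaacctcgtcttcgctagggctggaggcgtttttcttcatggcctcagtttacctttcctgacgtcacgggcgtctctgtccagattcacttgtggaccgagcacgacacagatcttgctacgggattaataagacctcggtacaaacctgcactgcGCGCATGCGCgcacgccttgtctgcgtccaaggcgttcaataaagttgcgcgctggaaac
Atp5g2 chr15:102671048-102671297 (minus strand): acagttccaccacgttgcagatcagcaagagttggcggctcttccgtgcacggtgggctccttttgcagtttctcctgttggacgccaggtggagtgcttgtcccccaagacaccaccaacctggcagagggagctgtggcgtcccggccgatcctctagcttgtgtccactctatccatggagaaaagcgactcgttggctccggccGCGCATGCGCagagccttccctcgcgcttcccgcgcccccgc
Sdhd chr9:50603850-50604099 (minus strand): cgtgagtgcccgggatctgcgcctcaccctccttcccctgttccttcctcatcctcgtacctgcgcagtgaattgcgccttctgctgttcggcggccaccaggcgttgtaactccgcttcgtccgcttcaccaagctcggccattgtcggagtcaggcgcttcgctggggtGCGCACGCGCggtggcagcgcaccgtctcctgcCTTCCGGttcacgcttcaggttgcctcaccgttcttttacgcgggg
Sdha chr13:74350241-74350490 (minus strand): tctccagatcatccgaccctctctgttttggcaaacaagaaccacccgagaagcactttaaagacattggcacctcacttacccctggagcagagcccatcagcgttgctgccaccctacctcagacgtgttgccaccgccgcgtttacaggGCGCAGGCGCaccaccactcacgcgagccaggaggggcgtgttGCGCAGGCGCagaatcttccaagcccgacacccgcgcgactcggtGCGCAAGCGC

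In complex I, 24 of 36 tested members rose in dHep against WT and 0 fell, with a median log2 fold change of 0.54, and 26 rose and 1 fell in the libraries labelled KO against WT, with a median of 0.60. The largest rises in both were in Ndufs7, a core subunit that carries the last iron-sulfur cluster before ubiquinone, and Ndufb7, an accessory subunit of the membrane arm. Ndufs7 (chromosome 10, positions 80249452 to 80256792, plus strand, mm10 as in the table) had 34.9, 48.2 and 37.7 CPM in the libraries labelled KO, 24.7, 30.6 and 38.9 CPM in dHep and 16.2, 15.3 and 14.1 CPM in WT. Its values in dHep and under the KO label overlapped each other and all lay above WT. The log2 fold change was 1.41 ± 0.18 in the libraries labelled KO against WT (edgeR adjusted p = 0.000603). In dHep, Ndufs7 had a log2 fold change of 1.05 ± 0.18 against WT (edgeR adjusted p = 0.00449). Ndufb7 (chromosome 8, positions 83566758 to 83571623, plus strand) had 53.4, 69.0 and 53.6 CPM in the libraries labelled KO, 40.7, 40.2 and 66.9 CPM in dHep and 22.5, 20.7 and 23.6 CPM in WT. Here too both groups lay wholly above WT, and dHep 3 stood apart from the other dHep livers. It rose, with a log2 fold change of 1.40 ± 0.20 in the libraries labelled KO against WT (edgeR adjusted p = 0.000898). In dHep, Ndufb7 had a log2 fold change of 1.14 ± 0.20 against WT (edgeR adjusted p = 0.00465).

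A further 4 members of complex I were among those with the smallest p. Ndufa11, an accessory subunit at the join of membrane arm segments (chromosome 17, positions 56717762 to 56724248, plus strand), had 55.4, 56.5 and 57.4 CPM in the libraries labelled KO, 37.1, 42.1 and 59.5 CPM in dHep and 25.6, 29.3 and 27.8 CPM in WT. Neither group overlapped WT, and its log2 fold change was 1.03 ± 0.16 in the libraries labelled KO against WT (edgeR adjusted p = 0.0012). In dHep, Ndufa11 had a log2 fold change of 0.74 ± 0.16 against WT (edgeR adjusted p = 0.01). Ndufa7, an accessory subunit of the matrix arm, had 71.3, 78.9 and 66.0 CPM in the libraries labelled KO, 61.5, 49.2 and 80.9 CPM in dHep and 33.1, 31.2 and 37.3 CPM in WT. All values of both groups were above WT, with a log2 fold change of 1.09 ± 0.17 in the libraries labelled KO against WT (edgeR adjusted p = 0.00123). In dHep, Ndufa7 had a log2 fold change of 0.91 ± 0.17 against WT (edgeR adjusted p = 0.00566). Ndufb4, another accessory subunit of the membrane arm, had 41.6, 51.6 and 49.0 CPM in the libraries labelled KO, 46.2, 38.1 and 55.0 CPM in dHep and 26.2, 24.0 and 26.2 CPM in WT. It also lay above WT in every liver of both groups, with a log2 fold change of 0.90 ± 0.14 in the libraries labelled KO against WT (edgeR adjusted p = 0.00138). In dHep, Ndufb4 had a log2 fold change of 0.87 ± 0.14 against WT (edgeR adjusted p = 0.00369). Ndufs8, an iron-sulfur core subunit of the matrix arm, had 75.1, 87.2 and 85.2 CPM in the libraries labelled KO, 70.0, 73.8 and 94.3 CPM in dHep and 49.1, 48.2 and 48.4 CPM in WT. Its values did not overlap WT in either group, and it rose, with a log2 fold change of 0.76 ± 0.12 in the libraries labelled KO against WT (edgeR adjusted p = 0.00132). In dHep, Ndufs8 had a log2 fold change of 0.71 ± 0.12 against WT (edgeR adjusted p = 0.00411). The calls against WT for Ndufs7, Ndufb7, Ndufa11, Ndufa7, Ndufb4 and Ndufs8 held under all alternatives, both in the libraries labelled KO and in dHep.

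The 7 core subunits of complex I differed among themselves. In dHep against WT 4 rose and 0 fell, and in the libraries labelled KO 4 rose and 1 fell, while of 29 tested accessory members 20 and 22 rose and 0 fell. Ndufs1, the largest core subunit, which carries iron-sulfur clusters of the matrix arm (chromosome 1, positions 63143592 to 63176822, minus strand), had 159.5, 144 and 146 CPM in the libraries labelled KO, 155, 226 and 206 CPM in dHep and 211, 216 and 219.6 CPM in WT. All 3 libraries labelled KO lay below WT, and dHep 1 was low while dHep 2 and dHep 3 were close to WT. It fell by 0.52 ± 0.13 on the log2 scale in the libraries labelled KO against WT (edgeR adjusted p = 0.0118), and its value in dHep against WT was -0.14 ± 0.13 (edgeR adjusted p = 0.465). Ndufv1, the core subunit that binds NADH and flavin, had 177, 192 and 167 CPM in the libraries labelled KO, 143, 169 and 223 CPM in dHep and 142, 143 and 139 CPM in WT. Its values were above WT in both groups, yet neither test passed, with a log2 fold change of 0.34 ± 0.15 in the libraries labelled KO against WT (edgeR adjusted p = 0.0905). In dHep, Ndufv1 had a log2 fold change of 0.34 ± 0.15 against WT (edgeR adjusted p = 0.126). Ndufv1 passed in the libraries labelled KO under 4 of 18 alternatives. These were limma voom, only the compared groups, and without dHep replicate 1 or 3 (edgeR adjusted p = 0.0359 and 0.0137). The range of Ndufv1 there was 0.00441 to 0.308 over the alternatives. In dHep it passed without dHep replicate 1 (edgeR adjusted p = 0.0264; range over the alternatives 0.0264 to 0.369).

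Ndufa4, the most abundant of the Nduf transcripts per kilobase and a subunit of complex IV, had 387, 425 and 441 CPM in the libraries labelled KO, 428, 340.4 and 459 CPM in dHep and 318, 323 and 324 CPM in WT. Both groups were above WT with a narrow gap, and the log2 fold change was 0.38 ± 0.13 in the libraries labelled KO against WT (edgeR adjusted p = 0.0354). In dHep, Ndufa4 had a log2 fold change of 0.35 ± 0.13 against WT (edgeR adjusted p = 0.0708). The difference between the libraries labelled KO and dHep was 0.029 ± 0.13 (edgeR adjusted p = 0.899). In dHep against WT, Ndufa4 passed under 3 of 18 alternatives. These were DESeq2, without dHep replicate 2 (edgeR adjusted p = 0.0127), and with both WT 1 and dHep 2 dropped. The range of Ndufa4 in dHep was 0.0127 to 0.346 over the alternatives. The call of Ndufa4 in the libraries labelled KO ended without KO replicate 2 or 3 (edgeR adjusted p = 0.0941 and 0.115), without any 1 of the WT libraries (0.1, 0.0985 and 0.0963), without TMM factors (0.278), with no low-count filter (0.056) and with a replicate block (0.0536; range 0.000768 to 0.278). Its paralog Ndufa4l2, known as a gene induced by low oxygen, was near the detection limit, at 0.939, 1.67 and 1.04 CPM in the libraries labelled KO, 1.38, 1.16 and 1.62 CPM in dHep and 0.864, 1.07 and 1.32 CPM in WT. The groups overlapped throughout and neither test passed.

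The 4 genes of complex II, which oxidises succinate in the citric acid cycle, went different ways. Against WT, 2 of 4 rose in dHep and 0 fell, where 12.4% of all tested genes rose and 11.9% fell. In the libraries labelled KO 1 rose and 1 fell. These are 25% each, close to the 20.9% and 22.1% of all tested genes. Sdhb, the iron-sulfur subunit (chromosome 4, positions 140961271 to 140979192, plus strand), had 219, 245 and 241 CPM in the libraries labelled KO, 178, 203 and 291 CPM in dHep and 139, 136 and 131 CPM in WT. Every liver of both groups was above WT, and its log2 fold change was 0.80 ± 0.16 in the libraries labelled KO against WT (edgeR adjusted p = 0.00448). In dHep, Sdhb had a log2 fold change of 0.73 ± 0.16 against WT (edgeR adjusted p = 0.0127). The dHep call ended without WT replicate 2 or 3 (edgeR adjusted p = 0.0529 and 0.061; range over the alternatives 0.000527 to 0.061). Sdha, the flavoprotein that binds succinate (chromosome 13, positions 74322255 to 74350240, minus strand), had 596, 526 and 539 CPM in the libraries labelled KO, 619, 782 and 764 CPM in dHep and 779, 787 and 760.3 CPM in WT. The libraries labelled KO lay below all others, and the dHep livers overlapped WT. Its log2 fold change was -0.48 ± 0.12 in the libraries labelled KO against WT (edgeR adjusted p = 0.0119). In dHep, Sdha had a log2 fold change of -0.10 ± 0.12 against WT (edgeR adjusted p = 0.572). The fall in the libraries labelled KO was no longer called without KO replicate 2 or without KO replicate 3 (edgeR adjusted p = 0.0501 for each; range 0.000186 to 0.0501).

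Sdhd, a membrane anchor of complex II (chromosome 9, positions 50596340 to 50603849, minus strand), had 242, 224 and 243 CPM in the libraries labelled KO, 299, 309 and 295 CPM in dHep and 226, 237 and 228 CPM in WT. The dHep values lay above those of both other groups, which overlapped. Its log2 fold change was -0.35 ± 0.086 in the libraries labelled KO against dHep (edgeR adjusted p = 0.0347), 0.38 ± 0.086 in dHep against WT (edgeR adjusted p = 0.0121) and 0.034 ± 0.086 in the libraries labelled KO against WT (edgeR adjusted p = 0.767). The difference between the libraries labelled KO and dHep lost its call under 13 of 18 alternatives, among them leaving out KO replicate 1, 2 or 3 (edgeR adjusted p = 0.0692, 0.121 and 0.1), dHep replicate 2 (0.0774) or WT replicate 1, 2 or 3 (0.074, 0.0761 and 0.075), with a range of 9.72e-05 to 0.149. The dHep rise ended without WT replicate 1 or 3 (0.0577 and 0.063), with both WT 1 and dHep 2 dropped, or without TMM factors (0.137, range 2.71e-06 to 0.137). Sdhc, the other anchor, had 180.3, 175 and 194 CPM in the libraries labelled KO, 179.6, 187 and 224 CPM in dHep and 176, 195 and 181 CPM in WT. Its groups overlapped, and its log2 fold change was -0.006 ± 0.11 in the libraries labelled KO against WT (edgeR adjusted p = 0.97). In dHep, Sdhc had a log2 fold change of 0.098 ± 0.11 against WT (edgeR adjusted p = 0.535).

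**Figure D3:**
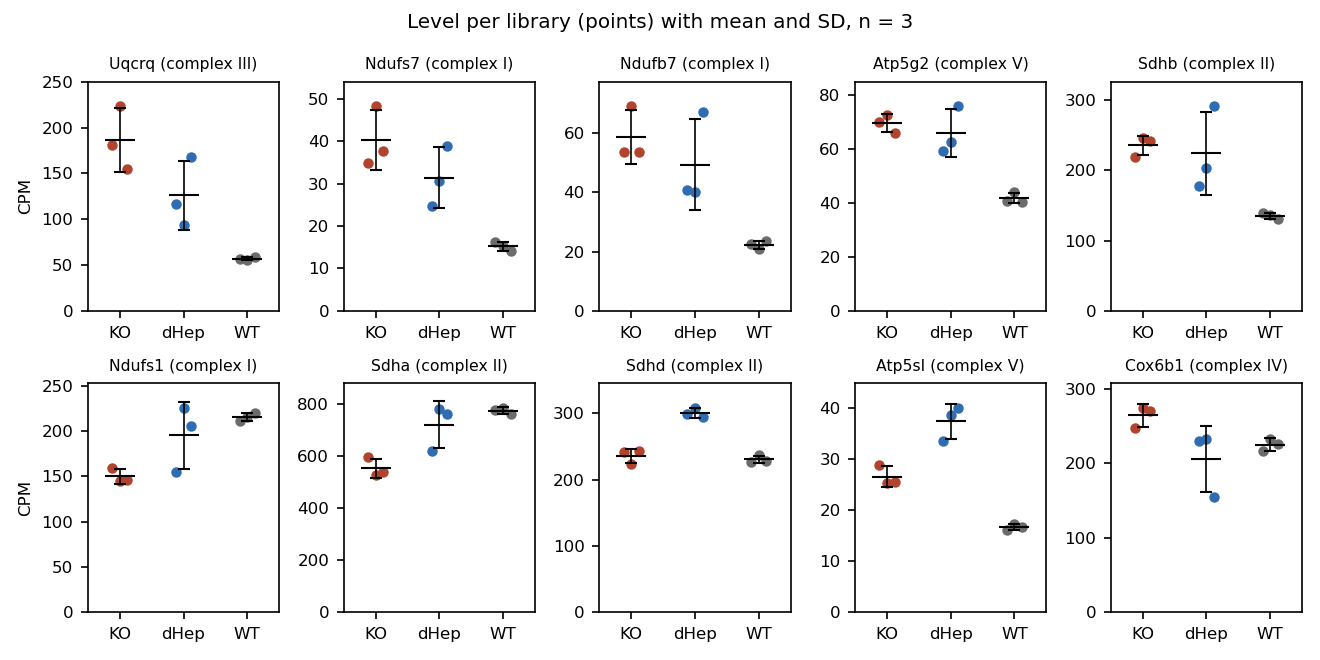
Points are the CPM of 1 gene in each of the 3 libraries labelled KO, dHep and WT, with the mean as a long bar and the SD as whiskers (n = 3), on linear axes from 0. Uqcrq, Ndufs7, Ndufb7, Atp5g2 and Sdhb are above WT in every library of both groups. In Ndufs1 and Sdha the mean of the libraries labelled KO is lowest, and in Ndufs1 dHep 1 lies within their range. In Sdhd and Atp5sl dHep is highest, and in Cox6b1 dHep 3 is low.

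Complex III held the largest rise of all tested members in the libraries labelled KO. Of its 8 members, 6 rose in dHep against WT and 4 in the libraries labelled KO, and 0 fell in either. Uqcrq, a small accessory subunit (chromosome 11, positions 53428948 to 53430831, minus strand), had 181, 223 and 155 CPM in the libraries labelled KO, 117, 93.7 and 168 CPM in dHep and 56.5, 55.5 and 58.6 CPM in WT. Every value of both groups lay above WT, and the highest dHep liver fell within the range of the libraries labelled KO. It rose, with a log2 fold change of 1.71 ± 0.21 in the libraries labelled KO against WT (edgeR adjusted p = 0.00045). In dHep, Uqcrq had a log2 fold change of 1.15 ± 0.20 against WT (edgeR adjusted p = 0.00494). Uqcr11, the smallest subunit (chromosome 10, positions 80402997 to 80406821, minus strand), had 111, 139 and 113 CPM in the libraries labelled KO, 75.8, 73.7 and 124 CPM in dHep and 45.9, 45.9 and 45.7 CPM in WT. Both groups were again separate from WT, and its log2 fold change was 1.40 ± 0.19 in the libraries labelled KO against WT (edgeR adjusted p = 0.000738). In dHep, Uqcr11 had a log2 fold change of 0.99 ± 0.19 against WT (edgeR adjusted p = 0.00651). Uqcr10, another small accessory subunit, had a log2 fold change of 1.03 ± 0.17 in the libraries labelled KO against WT (edgeR adjusted p = 0.00162). In dHep, Uqcr10 had a log2 fold change of 0.75 ± 0.17 against WT (edgeR adjusted p = 0.0128). Its dHep call ended without WT replicate 2 or 3 (edgeR adjusted p = 0.0524 and 0.053; range over the alternatives 0.000725 to 0.053). The calls of Uqcrq and Uqcr11 in both comparisons held under all alternatives.

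Of the larger named subunits of complex III, Uqcrc1 was called in both comparisons against WT, and Uqcrc2 and Uqcrfs1 in neither. Uqcrc1, a core protein, had 231, 248 and 235 CPM in the libraries labelled KO, 198, 253 and 311 CPM in dHep and 169, 181 and 178 CPM in WT. It was above WT in every liver of both groups, with a log2 fold change of 0.44 ± 0.15 in the libraries labelled KO against WT (edgeR adjusted p = 0.0372). In dHep, Uqcrc1 had a log2 fold change of 0.53 ± 0.15 against WT (edgeR adjusted p = 0.0283). The call in each comparison ended when any 1 WT library was left out. For the libraries labelled KO, 9 of 18 alternatives ended it (range 0.000927 to 0.115), without KO replicate 1, 2 or 3 (edgeR adjusted p = 0.0562, 0.105 and 0.0838) or WT replicate 1, 2 or 3 (0.113, 0.088 and 0.0947) among them. For dHep, 6 of 18 did so (range 0.00356 to 0.11), without dHep replicate 3 (0.054) or WT replicate 1, 2 or 3 (0.0957, 0.0853 and 0.0923) among them. Its partner Uqcrc2 had 294, 282 and 308 CPM in the libraries labelled KO, 311, 374 and 383 CPM in dHep and 328, 353 and 354 CPM in WT. The libraries labelled KO lay below all other livers, yet neither test passed, with a log2 fold change of -0.23 ± 0.11 in the libraries labelled KO against WT (edgeR adjusted p = 0.116). In dHep, Uqcrc2 had a log2 fold change of 0.046 ± 0.11 against WT (edgeR adjusted p = 0.789). Uqcrc2 passed as a fall in the libraries labelled KO against WT under 4 of 18 alternatives. These were library totals alone, limma voom, only the compared groups, and without dHep replicate 1 (edgeR adjusted p = 0.0412). The range over the alternatives was 0.00407 to 0.269. Uqcrfs1, the Rieske iron-sulfur protein that hands electrons to the cytochrome, had log2 fold changes of 0.20 ± 0.13 in the libraries labelled KO against WT (edgeR adjusted p = 0.256) and 0.27 ± 0.13 in dHep against WT (edgeR adjusted p = 0.169), and its groups overlapped.

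In complex IV, cytochrome c oxidase, 4 of 14 tested members rose in dHep against WT and 6 in the libraries labelled KO, and 0 fell in either, with medians of 0.38 and 0.37. Cox7c, a small membrane subunit, had 133, 159 and 134 CPM in the libraries labelled KO, 123, 106 and 175 CPM in dHep and 81.7, 81.4 and 85.1 CPM in WT. All livers of both groups were above WT, with a log2 fold change of 0.78 ± 0.17 in the libraries labelled KO against WT (edgeR adjusted p = 0.00548). In dHep, Cox7c had a log2 fold change of 0.70 ± 0.17 against WT (edgeR adjusted p = 0.0155). Cox4i1, the largest nuclear-encoded subunit (chromosome 8, positions 120668290 to 120674209, plus strand), had 414, 471 and 429 CPM in the libraries labelled KO, 361, 356 and 479.8 CPM in dHep and 279, 283 and 281 CPM in WT. It was separate from WT in both groups as well, with a log2 fold change of 0.64 ± 0.13 in the libraries labelled KO against WT (edgeR adjusted p = 0.00439). In dHep, Cox4i1 had a log2 fold change of 0.51 ± 0.13 against WT (edgeR adjusted p = 0.0222). Cox6a1, the isoform that liver uses, had 118, 147 and 119 CPM in the libraries labelled KO, 89.0, 77.3 and 132 CPM in dHep and 70.8, 72.7 and 68.6 CPM in WT. Its values did not overlap WT in either group, and its log2 fold change was 0.86 ± 0.18 in the libraries labelled KO against WT (edgeR adjusted p = 0.00514). In dHep, Cox6a1 had a log2 fold change of 0.49 ± 0.18 against WT (edgeR adjusted p = 0.0761). Cox5b, a zinc-binding subunit, had log2 fold changes of 0.66 ± 0.17 in the libraries labelled KO against WT (edgeR adjusted p = 0.0132) and 0.39 ± 0.17 in dHep against WT (edgeR adjusted p = 0.131), and Cox6c, a small membrane subunit, of 0.44 ± 0.13 in the libraries labelled KO against WT (edgeR adjusted p = 0.0208). In dHep, Cox6c had a log2 fold change of 0.48 ± 0.13 against WT (edgeR adjusted p = 0.0249).

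The calls of complex IV in dHep each ended when any 1 WT library was left out. Over all genes, 890, 667 and 606 rose in dHep without WT replicate 1, 2 or 3, against 1624 with all libraries. The dHep call of Cox4i1 ended without WT replicate 1, 2 or 3 (edgeR adjusted p = 0.0732, 0.0804 and 0.0827; range 0.00242 to 0.0827) and that of Cox7c likewise (0.0534, 0.064 and 0.0591; range 0.0013 to 0.064). For Cox6c it ended without dHep replicate 1 or 3 (0.0511 and 0.0599) or WT replicate 1, 2 or 3 (0.0902, 0.081 and 0.0861, range 0.00448 to 0.144). Library totals alone also ended the dHep calls of Cox4i1 and Cox6c. Cox7a2l, the supercomplex factor, was called higher in dHep (log2 fold change 0.38 ± 0.10, edgeR adjusted p = 0.0261) and had 0.14 ± 0.10 in the libraries labelled KO (edgeR adjusted p = 0.279). Its dHep call ended under 9 of 18 alternatives, among them without dHep replicate 2 or 3 (0.0552 and 0.058) or WT replicate 1, 2 or 3 (0.096, 0.0741 and 0.0991; range 0.00643 to 0.152). In the libraries labelled KO the call of Cox5b ended without WT replicate 3 (0.0516; range 0.000125 to 0.0516). That of Cox6c ended there with library totals alone, without KO replicate 2 or 3 (edgeR adjusted p = 0.0764 and 0.0666) or WT replicate 1, 2 or 3 (0.0748, 0.0609 and 0.0637, range over the alternatives 0.000497 to 0.186). Not called with all libraries, Cox6a1 passed in dHep with DESeq2 and without dHep replicate 2 (edgeR adjusted p = 0.0203, range over the alternatives 0.0203 to 0.202). Cox5b passed in dHep without dHep replicate 2 (edgeR adjusted p = 0.0231; range over the alternatives 0.0231 to 0.376).

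Among the other subunits of complex IV, Cox8a passed in the libraries labelled KO and missed the threshold in dHep, with log2 fold changes of 0.48 ± 0.15 in the libraries labelled KO against WT (edgeR adjusted p = 0.0325) and 0.36 ± 0.15 in dHep against WT (edgeR adjusted p = 0.12), and the difference between the 2 groups did not pass (Cox8a 0.12 ± 0.15 in the libraries labelled KO against dHep, edgeR adjusted p = 0.652). The rise of Cox8a ended with library totals alone, without KO replicate 2 or 3 (edgeR adjusted p = 0.122 and 0.0693) or WT replicate 1, 2 or 3 (0.0967, 0.077 and 0.0901, range 0.00109 to 0.157). Cox5a missed the threshold in both, at 0.38 ± 0.14 in the libraries labelled KO against WT (edgeR adjusted p = 0.0509) and 0.36 ± 0.14 in dHep against WT (edgeR adjusted p = 0.0893), and so did Cox7a2, the liver isoform of its subunit, at 0.22 ± 0.11 in the libraries labelled KO against WT (edgeR adjusted p = 0.141). In dHep, Cox7a2 had a log2 fold change of 0.35 ± 0.11 against WT (edgeR adjusted p = 0.0527). Cox5a passed in the libraries labelled KO under 6 of 18 alternatives. These were DESeq2, limma voom, only the compared groups, and without dHep replicate 1, 2 or 3 (edgeR adjusted p = 0.0332, 0.047 and 0.0048). The range of Cox5a there was 0.00244 to 0.202 over the alternatives. In dHep, Cox5a passed without dHep replicate 1 (edgeR adjusted p = 0.0396; range over the alternatives 0.0396 to 0.295). Cox7a2 passed in dHep under 3 of 18 alternatives, with a range of 0.00971 to 0.324. These were DESeq2, without dHep replicate 2 (edgeR adjusted p = 0.00971), and with both WT 1 and dHep 2 dropped. In the libraries labelled KO, Cox7a2 passed with limma voom and with only the compared groups (range 0.0126 to 0.835). Cox8a passed in dHep without dHep replicate 2 (edgeR adjusted p = 0.0213, range over the alternatives 0.0213 to 0.41). Cox6b1, which joins the monomers of the complex IV dimer, had 247, 275 and 271 CPM in the libraries labelled KO, 229.7, 233 and 154 CPM in dHep and 216, 233 and 226 CPM in WT. It was lowest in dHep 3, the dHep library in which most members were highest. Its log2 fold change was 0.23 ± 0.15 in the libraries labelled KO against WT (edgeR adjusted p = 0.233). In dHep, Cox6b1 had a log2 fold change of -0.13 ± 0.15 against WT (edgeR adjusted p = 0.56). Cox6b1 passed in the libraries labelled KO under 3 of 18 alternatives, with a range of 0.0236 to 0.856. These were limma voom, only the compared groups, and without dHep replicate 3 (edgeR adjusted p = 0.0358).

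The muscle isoforms of complex IV were highest in 1 library, dHep 2. Cox6a2, the heart and skeletal muscle isoform, had 0.0939, 0.226 and 0.173 CPM in the libraries labelled KO, 0.210, 4.30 and 0.0490 CPM in dHep and 0.0751, 0.0741 and 1.43 CPM in WT. It was highest in dHep 2, followed by WT 3, and near 0 elsewhere. Cox8b, another muscle isoform, had 0.0939, 0.0904 and 0.981 CPM in the libraries labelled KO, 0.749, 5.66 and 0.147 CPM in dHep and 0, 0.0741 and 1.39 CPM in WT. The order was the same, with dHep 2 highest and WT 3 next. Cox7a1, expressed mainly in muscle and brown fat, had 2.07, 1.36 and 2.08 CPM in the libraries labelled KO, 2.67, 6.18 and 0.343 CPM in dHep and 2.104, 3.78 and 3.99 CPM in WT. It was highest in dHep 2 and lowest in dHep 3, and the libraries labelled KO lay just below the lowest WT library. The tested isoforms Cox8b and Cox7a1 did not pass in any comparison, and Cox6a2 had too few reads to be tested. The 15 skeletal muscle markers summed to 835 CPM in dHep 2 and to at most 71.6 CPM in every other library, and 7.74 CPM in WT 3. Exocrine pancreas markers were also highest in dHep 2, at 1778 CPM, followed by WT 1 at 472 CPM. When dHep 2 and WT 1 were both dropped, 42 of the tested members rose in dHep against WT, where 1399 of 13154 tested genes rose. With all libraries, 46 members and 1624 of 13141 tested genes did. The part of muscle and pancreas transcripts in these counts was not tested.

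**Figure D4:**
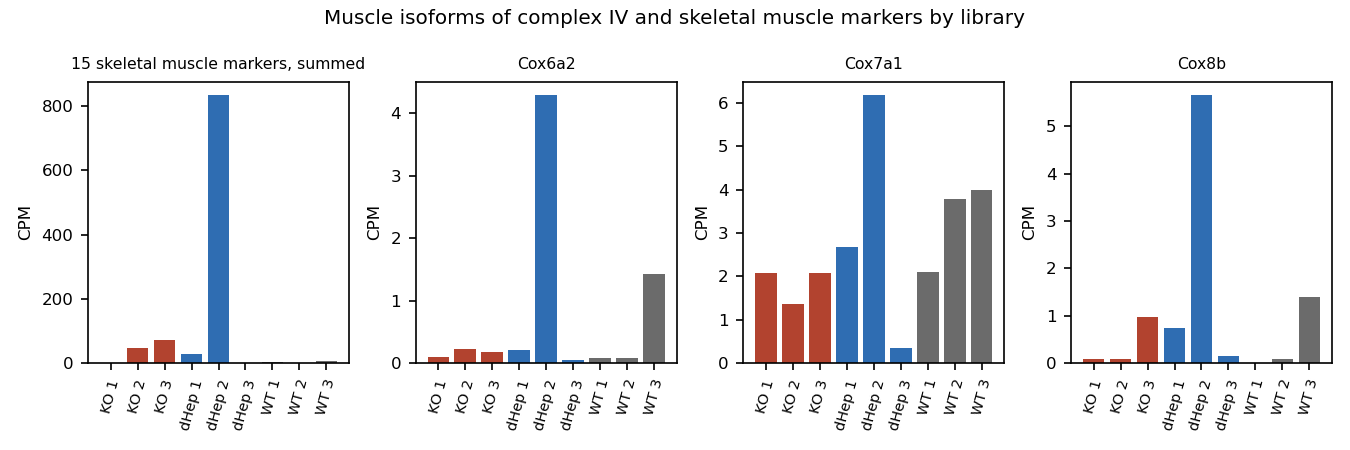
Bars are the summed CPM of 15 skeletal muscle markers and the CPM of Cox6a2, Cox7a1 and Cox8b in each of the 9 libraries, on linear axes from 0. dHep 2 is highest in all 4 panels, and WT 3 is second in Cox6a2, Cox7a1 and Cox8b.

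In complex V, 10 of 17 tested members rose in dHep against WT and 9 in the libraries labelled KO, and 0 fell in either, with medians of 0.44 and 0.40. The 3 genes Atp5g1, Atp5g2 and Atp5g3 encode the same mature c subunit of the membrane rotor with different import signals. Atp5g2 (chromosome 15, positions 102662868 to 102671047, minus strand) had 70.3, 72.8 and 66.1 CPM in the libraries labelled KO, 59.3, 62.7 and 76.0 CPM in dHep and 40.9, 44.2 and 40.5 CPM in WT. Both groups were clear of WT, and its log2 fold change was 0.73 ± 0.11 in the libraries labelled KO against WT (edgeR adjusted p = 0.00096). In dHep, Atp5g2 had a log2 fold change of 0.65 ± 0.11 against WT (edgeR adjusted p = 0.00367). Atp5g1 had 143, 159.6 and 157 CPM in the libraries labelled KO, 141, 146 and 181 CPM in dHep and 89.1, 103 and 97.1 CPM in WT. It too was above WT in every liver, with a log2 fold change of 0.67 ± 0.12 in the libraries labelled KO against WT (edgeR adjusted p = 0.00203). In dHep, Atp5g1 had a log2 fold change of 0.69 ± 0.12 against WT (edgeR adjusted p = 0.00384). Atp5g3 had the highest level per kilobase of the 3 c subunit genes, 508 in the libraries labelled KO, 501 in dHep and 369 in WT, and a log2 fold change of 0.46 ± 0.16 in the libraries labelled KO against WT (edgeR adjusted p = 0.0425). In dHep, Atp5g3 had a log2 fold change of 0.44 ± 0.16 against WT (edgeR adjusted p = 0.0741). In dHep, Atp5g3 passed with DESeq2 and without dHep replicate 1 or 2 (edgeR adjusted p = 0.0329 and 0.044, range over the alternatives 0.0329 to 0.189). Its call in the libraries labelled KO ended under 10 of 18 alternatives, among them leaving out any 1 of the KO or WT libraries (edgeR adjusted p = 0.0571, 0.125 and 0.0953 without KO replicates 1 to 3, and 0.11, 0.0992 and 0.115 without WT replicates 1 to 3; range 0.000808 to 0.125).

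Further subunits of the ATP synthase lie in its membrane part, its stalk and its catalytic head. Atp5l, a membrane subunit, had 119, 129.7 and 129 CPM in the libraries labelled KO, 98.1, 100.1 and 132 CPM in dHep and 74.2, 79.3 and 75.1 CPM in WT. All livers of both groups were above WT, with a log2 fold change of 0.72 ± 0.12 in the libraries labelled KO against WT (edgeR adjusted p = 0.00159). In dHep, Atp5l had a log2 fold change of 0.53 ± 0.12 against WT (edgeR adjusted p = 0.0125). The dHep call of Atp5l ended without WT replicate 1 or 3 (edgeR adjusted p = 0.0508 and 0.0605; range over the alternatives 0.00135 to 0.0605). Atp5o, which ties the stalk to the head, had 159, 179 and 179 CPM in the libraries labelled KO, 164, 159.9 and 204 CPM in dHep and 119.6, 124 and 123 CPM in WT. It did not overlap WT in either group, with a log2 fold change of 0.49 ± 0.11 in the libraries labelled KO against WT (edgeR adjusted p = 0.0067). In dHep, Atp5o had a log2 fold change of 0.52 ± 0.11 against WT (edgeR adjusted p = 0.00987). Atp5b, the catalytic beta subunit, had 1144, 1154 and 1147 CPM in the libraries labelled KO, 1165, 1449 and 1505 CPM in dHep and 1269, 1319 and 1340.2 CPM in WT. The libraries labelled KO lay just below all other livers, but its log2 fold change was -0.19 ± 0.13 in the libraries labelled KO against WT (edgeR adjusted p = 0.268). In dHep, Atp5b had a log2 fold change of 0.068 ± 0.13 against WT (edgeR adjusted p = 0.737). Atp5b passed as a fall in the libraries labelled KO under 3 of 18 alternatives (library totals alone, limma voom and only the compared groups; range 0.0107 to 0.429). Atp5a1, the alpha subunit, had 982, 1006 and 1008 CPM in the libraries labelled KO, 861, 1267 and 1408 CPM in dHep and 1026, 1074 and 1055 CPM in WT. Here the libraries labelled KO were below WT by a narrow margin and dHep was spread on both sides of WT, with a log2 fold change of -0.075 ± 0.17 in the libraries labelled KO against WT (edgeR adjusted p = 0.75). In dHep, Atp5a1 had a log2 fold change of 0.16 ± 0.17 against WT (edgeR adjusted p = 0.518). In dHep against WT, Atp5a1 passed without dHep replicate 1 (edgeR adjusted p = 0.0346).

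Atp5sl, the complex I assembly factor with a symbol of complex V (chromosome 7, positions 25619493 to 25625550, plus strand), had 28.9, 25.4 and 25.5 CPM in the libraries labelled KO, 33.5, 38.6 and 40.1 CPM in dHep and 16.1, 17.3 and 16.6 CPM in WT. The 3 groups did not overlap, with dHep highest and WT lowest. Its log2 fold change was -0.49 ± 0.11 in the libraries labelled KO against dHep (edgeR adjusted p = 0.0248), 1.16 ± 0.11 in dHep against WT (edgeR adjusted p = 0.00034) and 0.67 ± 0.11 in the libraries labelled KO against WT (edgeR adjusted p = 0.00155). Both calls against WT held under all alternatives. The difference between the libraries labelled KO and dHep ended without KO replicate 2 or 3 (edgeR adjusted p = 0.0874 and 0.0953), with only these groups in the fit (0.0836), with a replicate block (0.0532) and when WT 1 and dHep 2 were both dropped (0.0782; range 0.00176 to 0.0953).

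Set directly against each other, the libraries labelled KO and dHep differed in few members. Of 79 tested members, 0 rose and 2 fell (Sdhd and Atp5sl) in the libraries labelled KO against dHep, where 4.23% of all genes rose and 5.39% fell. Beside the 0 rises of edgeR, 2 members were higher at an unadjusted p under 0.05, and DESeq2 and limma voom called 0. The median log2 fold change was 0.001 over the tested members and -0.016 over all tested genes. In 1 member all libraries labelled KO were above all dHep libraries and in 7 all were below (13.9% and 12.7% of all genes). Counts in this comparison changed with the library left out. Without dHep replicate 3, 16 of 80 tested members rose, where 1313 of 13428 tested genes rose. Without dHep replicate 1, 8 of 80 fell, where 867 of 13359 tested genes fell. Without KO replicate 2 or KO replicate 3, 0 fell, where 234 of 13412 and 211 of 13413 tested genes fell. Without KO replicate 1, dHep replicate 2 or any 1 of the WT libraries, 1 fell.

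The members varied more between dHep livers than between those of the other groups. The median coefficient of variation over the tested members was 7.56% in the libraries labelled KO, 20.3% in dHep and 3.25% in WT, and over all genes 11.5%, 19.6% and 7.47%. Within dHep, dHep 3 was highest in 71 of 79 members (89.9%), where it was highest in 33.4% of all tested genes. In the libraries labelled KO, KO 2 was highest in 58 of 79 (73.4%, against 33.3% of all genes) and KO 1 lowest in 65. Summed over the members, dHep 3 stood at 16042 CPM, dHep 1 at 12258 CPM and dHep 2 at 12921 CPM, with WT at 10689 to 11119 CPM. Summed cytosolic ribosomal protein transcripts were also highest in dHep 3 and KO 2 within their groups, at 14830.2 and 15366 CPM. The part of library-wide differences, such as the ribosomal sum, in the differences between groups was not tested.

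Median log2 fold changes against WT were larger in shorter members. Of 41 tested members under 700 bases long, 25 rose in dHep against WT and 29 in the libraries labelled KO, with median log2 fold changes of 0.51 and 0.60, and 0 fell. Of 24 members from 700 to under 1500 bases, 15 and 13 rose, with medians of 0.46 and 0.39. Of 14 members of 1500 bases or more, 6 rose in dHep, and 4 rose and 2 fell in the libraries labelled KO, with medians of 0.29 and 0.15. These length classes were set after the values were seen. Over the 79 tested members, Spearman's rho between length and log2 fold change was -0.33 in dHep against WT and -0.37 in the libraries labelled KO against WT, and over all 13141 tested genes it was -0.28 and -0.33. The points share libraries and depth, and genes are not independent replicates, so these are descriptions. Ndufa11 and Atp5sl, 2661 and 2389 bases long in the table, were long members that rose. The part of length in the changes was not tested.

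**Figure D5:**
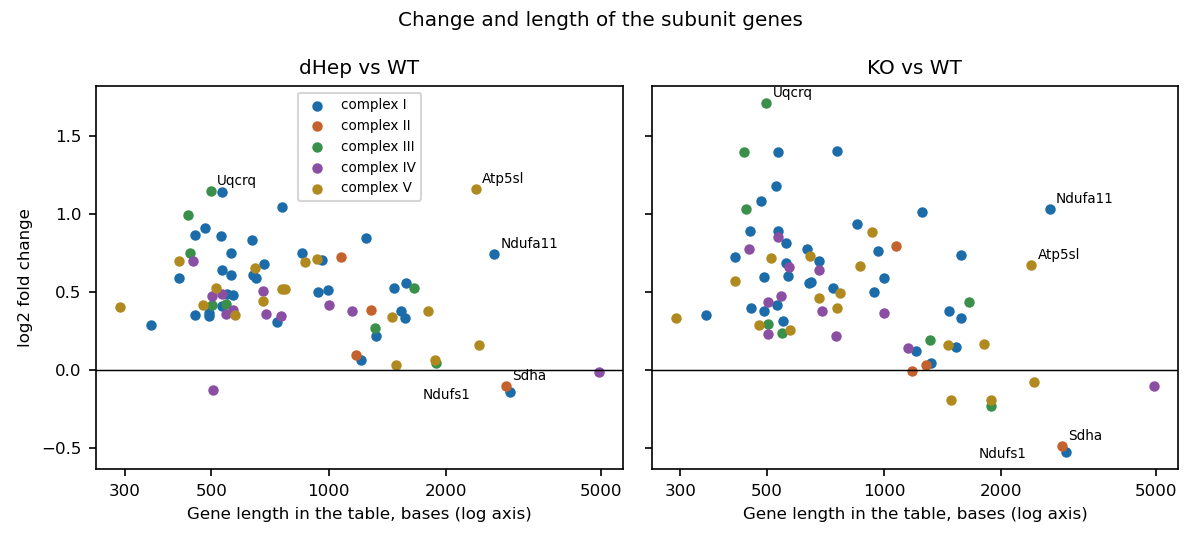
Each point is 1 tested member, with its length in the table in bases on a log axis and its log2 fold change on a linear axis, for dHep vs WT and KO vs WT, coloured by complex. Cox8b, Cox7a1, Ndufa4l2 and 1 other member are left out. Most members under 700 bases lie above 0, and Sdha and Ndufs1, at 2859 and 2927 bases, are lowest in KO vs WT.

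Other genes that serve the chain were counted in lists, and values beside their names are log2 fold changes ± SE. Of all tested genes, 12.4% rose and 11.9% fell in dHep against WT, and 20.9% rose and 22.1% fell in the libraries labelled KO. For complex I, 3 of 9 tested factors rose in dHep against WT, and 3 rose and 1 fell in the libraries labelled KO, with a rise of Ndufaf2 (0.73 ± 0.13, edgeR adjusted p = 0.00198) and a fall of Acad9 (-0.46 ± 0.13, edgeR adjusted p = 0.0215) there and a rise of Ecsit in dHep (0.67 ± 0.14, edgeR adjusted p = 0.00867). For complex IV, 3 of 12 rose in dHep and 5 of 12 did so in the libraries labelled KO, and 2 of 12 were higher in the libraries labelled KO than in dHep. Cox18, which inserts a mitochondrially encoded subunit into the membrane, rose by 1.34 ± 0.20 on the log2 scale in the libraries labelled KO against WT (edgeR adjusted p = 0.000958). Against dHep, Cox18 was higher there by 1.122 ± 0.195 (edgeR adjusted p = 0.0105). Cox16 rose by 0.85 ± 0.17 on the log2 scale in dHep against WT (edgeR adjusted p = 0.00862). Of 5 genes of complex III assembly and the cytochromes, 1 rose in each comparison against WT, the complex III subunit Cyc1, with a log2 fold change of 0.34 ± 0.12 in the libraries labelled KO against WT (edgeR adjusted p = 0.0404). In dHep, Cyc1 had a log2 fold change of 0.50 ± 0.12 against WT (edgeR adjusted p = 0.0145). The call of Cyc1 in the libraries labelled KO was kept under 10 of 18 alternatives. It ended, among others, without KO replicate 2 or 3 (edgeR adjusted p = 0.118 and 0.103) or WT replicate 1, 2 or 3 (0.118, 0.0981 and 0.11, range over the alternatives 0.0014 to 0.199). In dHep its call was kept under 14 of 18 alternatives. There it ended, among others, without WT replicate 1, 2 or 3 (edgeR adjusted p = 0.0571, 0.0561 and 0.0634, range over the alternatives 0.00136 to 0.0634). For complex V, 0 of 4 rose in dHep (edgeR; 0 also at an unadjusted p under 0.05, by DESeq2 and by limma voom) and 1 in the libraries labelled KO, Atpaf2 (0.35 ± 0.11, edgeR adjusted p = 0.0317). The call of Atpaf2 was kept under 10 of 18 alternatives. It ended, among others, without KO replicate 2 or 3 (edgeR adjusted p = 0.0533 and 0.0969) or WT replicate 1, 2 or 3 (0.128, 0.0507 and 0.0726, range over the alternatives 0.00462 to 0.368). The fall of Acad9 ended without KO replicate 1, 2 or 3 (edgeR adjusted p = 0.0695, 0.0704 and 0.0564) or WT replicate 2 or 3 (0.0747 and 0.0676; range over the alternatives 0.000547 to 0.0747). Both tested complex II factors passed in no comparison by edgeR, DESeq2 or limma voom, with 1 at an unadjusted p under 0.05 in the libraries labelled KO against dHep.

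Mitochondrial ribosomal protein genes rose in 34 of 76 in dHep against WT and in 52 of 76 in the libraries labelled KO, with 0 falls and medians of 0.38 and 0.48. Genes of protein import rose in 13 of 18 and 14 of 18, with 0 falls, with the smallest p in both for Tomm40, the channel of the outer membrane, at 1.07 ± 0.13 in the libraries labelled KO against WT (edgeR adjusted p = 0.000495). In dHep, Tomm40 had a log2 fold change of 0.92 ± 0.13 against WT (edgeR adjusted p = 0.00197). Of 17 genes of the citric acid cycle 1 rose and 3 fell in dHep, and 0 rose and 4 fell in the libraries labelled KO. The falls made up 17.6% and 23.5% of the list, against 11.9% and 22.1% of all tested genes. Cs, citrate synthase, fell in dHep (-0.56 ± 0.098, edgeR adjusted p = 0.00456), Idh3b, an isocitrate dehydrogenase subunit, rose there (0.41 ± 0.11, edgeR adjusted p = 0.0216), and Pdha1, a pyruvate dehydrogenase subunit, fell in the libraries labelled KO against WT (-0.73 ± 0.11, edgeR adjusted p = 0.000872) and against dHep (-0.45 ± 0.11, edgeR adjusted p = 0.0304). The call of Idh3b in dHep was kept under 12 of 18 alternatives. It ended, among others, without WT replicate 1, 2 or 3 (edgeR adjusted p = 0.0804, 0.0871 and 0.0713, range over the alternatives 0.0041 to 0.0871). The call of Pdha1 in the libraries labelled KO against dHep was kept under 7 of 18 alternatives. It ended, among others, without KO replicate 1, 2 or 3 (edgeR adjusted p = 0.0692, 0.113 and 0.0687) or dHep replicate 2 (0.0788) or WT replicate 1, 2 or 3 (0.061, 0.0643 and 0.0621, range over the alternatives 0.00206 to 0.13). For the 0 rises, an unadjusted p under 0.05 was reached by 0 genes, DESeq2 called 0 and limma voom 2. Of 12 coenzyme Q synthesis genes, 2 rose in dHep and 3 did so in the libraries labelled KO, with the smallest p for Coq9 in dHep (0.28 ± 0.076, edgeR adjusted p = 0.0259) and for Coq5 in the libraries labelled KO (0.73 ± 0.12, edgeR adjusted p = 0.00139). The call of Coq9 in dHep was kept under 9 of 18 alternatives. It ended, among others, without WT replicate 1, 2 or 3 (edgeR adjusted p = 0.109, 0.0853 and 0.101, range over the alternatives 0.00518 to 0.441). Of 7 genes that pass electrons to ubiquinone from sources such as fat, glycerol, proline, dihydroorotate and sulfide, 3 rose and 1 fell in each comparison against WT. The smallest p of each direction was in dHep that of Prodh (1.54 ± 0.23, edgeR adjusted p = 0.0022) and Gpd2 (-0.98 ± 0.11, edgeR adjusted p = 0.000723), and in the libraries labelled KO that of Etfb (0.89 ± 0.16, edgeR adjusted p = 0.00213) and Sqrdl (-0.38 ± 0.13, edgeR adjusted p = 0.0353). The call of Sqrdl in the libraries labelled KO was kept under 11 of 18 alternatives. It ended, among others, without KO replicate 1, 2 or 3 (edgeR adjusted p = 0.0633, 0.117 and 0.0808) or WT replicate 1, 2 or 3 (0.0725, 0.101 and 0.0967, range over the alternatives 0.00141 to 0.117). Set against dHep, the libraries labelled KO were higher in Gpd2 (0.705 ± 0.11, edgeR adjusted p = 0.00664) and lower in Sqrdl (-0.733 ± 0.126, edgeR adjusted p = 0.0101). Coq9 was also lower there (-0.345 ± 0.076, edgeR adjusted p = 0.0248), a call kept under 7 of 18 alternatives. Of 10 carriers and uncoupling proteins, 0 rose and 1 fell in each comparison against WT. The fall was in the uncoupling protein gene Ucp2, at -1.59 ± 0.20 in the libraries labelled KO against WT (edgeR adjusted p = 0.000564). In dHep, Ucp2 had a log2 fold change of -1.43 ± 0.20 against WT (edgeR adjusted p = 0.00188). Beside the 0 rises in dHep, 2 carriers were higher at an unadjusted p under 0.05, DESeq2 called 1 and limma voom 0, and in the libraries labelled KO these counts were 1, 0 and 2.

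Among 16 regulators of mitochondrial biogenesis, 4 rose in dHep against WT and 0 fell, and 5 rose and 2 fell in the libraries labelled KO. Polrmt, the RNA polymerase of mitochondria, had 17.3, 17.9 and 16.6 CPM in the libraries labelled KO, 11.3, 10.00 and 12.8 CPM in dHep and 7.44, 7.003 and 7.20 CPM in WT. The groups did not overlap in any pair, and the log2 fold change was 1.26 ± 0.12 in the libraries labelled KO against WT (edgeR adjusted p = 0.000195) and 0.65 ± 0.12 in dHep against WT (edgeR adjusted p = 0.00507), with 0.60 ± 0.12 in the libraries labelled KO against dHep (edgeR adjusted p = 0.0143). Ppargc1a, the coactivator PGC-1alpha, which drives respiratory genes in many tissues, had 7.89, 5.56 and 5.60 CPM in the libraries labelled KO, 15.6, 12.4 and 9.47 CPM in dHep and 14.7, 12.97 and 13.5 CPM in WT. The libraries labelled KO lay below all other livers. Ppargc1a fell there against WT (-1.11 ± 0.20, edgeR adjusted p = 0.00256) and against dHep (-0.98 ± 0.20, edgeR adjusted p = 0.0191), and its value in dHep against WT was -0.13 ± 0.20 (edgeR adjusted p = 0.65). The difference of Polrmt between the libraries labelled KO and dHep ended without KO replicate 2 or 3 (edgeR adjusted p = 0.0643 and 0.0544, range over the alternatives 0.000853 to 0.0665). That of Ppargc1a ended without KO replicate 2 or 3 (edgeR adjusted p = 0.0826 and 0.085, range over the alternatives 0.000326 to 0.085). Both also ended with only these groups in the fit and when WT 1 and dHep 2 were both dropped. Of the factors whose motifs were searched, Nrf1 had a log2 fold change of 0.42 ± 0.12 in the libraries labelled KO against WT (edgeR adjusted p = 0.0221). In dHep, Nrf1 had a log2 fold change of 0.31 ± 0.12 against WT (edgeR adjusted p = 0.098). Its call in the libraries labelled KO ended with library totals alone, without KO replicate 1, 2 or 3 (edgeR adjusted p = 0.055, 0.0637 and 0.0511) or WT replicate 1, 2 or 3 (0.0526, 0.0818 and 0.0868, range over the alternatives 0.00312 to 0.236). Gabpa had a log2 fold change of -0.51 ± 0.12 in the libraries labelled KO against WT (edgeR adjusted p = 0.00915). In dHep, Gabpa had a log2 fold change of -0.041 ± 0.12 against WT (edgeR adjusted p = 0.836). Esrra had a log2 fold change of 0.62 ± 0.14 in the libraries labelled KO against WT (edgeR adjusted p = 0.00672). In dHep, Esrra had a log2 fold change of 0.58 ± 0.14 against WT (edgeR adjusted p = 0.016). The dHep call of Esrra ended without WT replicate 2 or 3 (edgeR adjusted p = 0.0664 and 0.0714, range over the alternatives 0.00246 to 0.0714) and with both WT 1 and dHep 2 dropped. Yy1 had a log2 fold change of -0.17 ± 0.11 in the libraries labelled KO against WT (edgeR adjusted p = 0.244). In dHep, Yy1 had a log2 fold change of -0.062 ± 0.11 against WT (edgeR adjusted p = 0.715).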

How the data were processed

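Poly(A) RNA of 9 mouse livers, 3 in each group, was sequenced with a stranded protocol. Per the submitters' processing notes, HISAT2 2.1.0 was the aligner and mm10 the genome. Per the file headers, the deposited values are unnormalized counts of reads per gene, made by featureCounts 1.6.2 (strand setting 2), beside a Length column in bases, a unit of other kind used here to describe levels per kilobase. The counts ran without an option for multi-mapping reads, per the file headers, so values of genes with near-identical copies are uncertain. The labels place 3 mice in each group and give no litter, cage or batch. Reads carry no molecular identifiers, and depth was 18683660 to 30509242 assigned reads per library.

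A filter on low counts (filterByExpr, with 10 reads as minimum count and 15 as minimum total) left 13141 of 23337 genes. The quasi-likelihood test of edgeR 4.0.16 in R 4.3.3 was fitted to the 9 libraries together, with TMM factors and 1 mean per group, after it had been tested on simulated data. Benjamini-Hochberg adjustment ran over all tested genes, and 0.05 was the threshold. SE is the log2 fold change divided by the square root of F. Alternatives were median-of-ratios factors, library totals alone, DESeq2 1.42.0, limma 3.58.1 voom with sample quality weights, no filter, a filter of 1 CPM in 3 libraries, only the compared groups, a replicate block, and left-out libraries. Members, lists, motifs and tests were chosen with earlier results of these data known. Named were the called members with the smallest p, up to 4 per direction in complexes I, IV and V and up to 2 in II and III. Core subunits and tissue isoforms were named too. From each list of genes that serve the chain, the called gene with the smallest p in each direction was named. For the mitochondrial and cytosolic ribosome, short genes and cell markers, counts or sums are given, and no gene was picked by p. Uqcr10, Uqcrc2, Sdhc, Cox6b1, Nrf1, Gabpa, Esrra and Yy1 were named after their values were seen. The values of 1 member, counted in the totals, are not reported here.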

Additional observations from a re-analysis of the deposited data

How the results depend on the processing

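Among the counts and the gene values run under alternatives, none changed sign past the threshold. In dHep against WT, 10 of 17 named members called stayed called under all alternatives, in the libraries labelled KO against WT 15 of 21, and of the 2 called between the libraries labelled KO and dHep 0 did. Of the named members not called, 8 of 15, 6 of 9 and 5 of 20 passed under at least 1 alternative in these comparisons. For the named genes that are not members, and for members printed outside the rule, the same alternatives were added after seeing the data. The count of 46 rises in dHep against WT was 30 with library totals alone and ran from 18 to 56 with 1 library left out. The 18 came without WT replicate 3, where 606 of all genes rose, and the 56 without dHep replicate 2, where 2060 did. Falls in dHep stayed at 0. In the libraries labelled KO against WT, rises ran from 33 to 58 with 1 library left out. The 33 came without KO replicate 2 or WT replicate 3, where 1971 and 1794 of all genes rose. The 58 came without dHep replicate 3, where 3180 did. Rises numbered 34 with library totals alone, 59 with only the compared groups and 62 with limma voom. Over all genes, 1526, 3678 and 3999 rose in these fits, against 2751 with edgeR, all libraries and TMM. Falls there, 2 in all, numbered 4 with library totals alone or limma voom, 5 with only the compared groups, and 1 to 3 with 1 library left out. Over all genes, 3763 fell with library totals alone, 4203 with limma voom and 3842 with only the compared groups. With edgeR, all libraries and TMM, 2902 did. In the libraries labelled KO against dHep, rises ran from 0 to 16 with 1 library left out. The 16 came without dHep replicate 3, where 1313 of 13428 tested genes rose. Falls, also 2, numbered 1 with limma voom or no filter, 0 with only the compared groups or with both WT 1 and dHep 2 dropped, and 0 to 8 with 1 library left out. Over all genes, 444 fell with limma voom, 603 with no filter, 190 with only the compared groups and 265 with both dropped. With edgeR, all libraries and TMM, 708 did. Library totals alone moved the median log2 fold change of all genes to -0.15 in dHep against WT and -0.20 in the libraries labelled KO against WT. The calls over all genes were then 778 higher and 2029 lower in dHep (1624 and 1568 with TMM), and 1526 higher and 3763 lower in the libraries labelled KO (2751 and 2902 with TMM). The median of the members less that of all genes was 0.46 and 0.48 there, and 0.47 and 0.48 with TMM. The cause of these changes was not tested. The replicate block gave 42 rises in dHep against WT, 43 rises and 2 falls in the libraries labelled KO against WT, and 0 falls in the libraries labelled KO against dHep. Over all genes, these numbered 1320, 2512, 2780 and 552. The numbers do not pair the samples: over 9 same-numbered pairs the correlation of deviations was -0.19 to 0.043, and 1 of 9 libraries correlated best with its own number. With 3 livers a group, and a wide spread in dHep, small differences are not detectable, and Ndufs5, Cox7b2 and Cox8c, with 0 reads, give no level.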
